A study of Mus musculus with 12 samples.

Results

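The genes described here carry odorant receptors to the surface of the olfactory sensory neuron and turn receptor binding into cyclic AMP. They were taken by symbol from a list of 10, namely Rtp1, Rtp2, Reep1, Ric8b, Gnal, Gnb1, Gng13, Adcy3, Pde1c and Pde4a, and all 10 were measured among 19937 genes. Each had 1 probe. The samples were 12 pools of olfactory epithelium RNA from male C57BL/6 mice. The animals had been entrained to a cycle of light and dark and were then kept in constant darkness. The second cycle in darkness comprised the 6 pools from CT36 to CT56 and the first cycle the 6 pools from CT12 to CT32, with 1 pool every 4 h. In circadian time (CT), hours 0 to 12 are called subjective day and hours 12 to 24 subjective night. Each pool joined RNA of 4 mice, 48 mice in all, and was run on 1 Affymetrix array, so that p-values measure the spread between pools and not between single animals.

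An odorant receptor made in the sensory neuron has to leave the endoplasmic reticulum and reach the membrane of the cilia that float in the nasal mucus. The receptor transporting proteins help it to get there. In the cilium the bound receptor activates a G protein whose alpha subunit is Golf. The freed subunit switches on type III adenylyl cyclase, and the cyclic AMP that it makes opens a cation channel and depolarises the cell. Phosphodiesterases break cyclic AMP down and so help to end the response.

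Values are deposited log2 intensities, in which a difference of 1 is a 2-fold change. Medians of the 12 arrays lay between 7.81 and 7.92. The CT56 array stood apart, with a mean Pearson correlation of 0.975 with the others over all probes, against 0.981 for CT32, the next lowest. CT56 and CT52 had the lowest array weights, 0.33 and 0.47. All 8 mature sensory neuron markers were measured, with a mean of 11.12 or more each. Their means and those of the 10 genes lay above 7.10, the 25th percentile of gene means, though probes of different genes are not on one scale. The tissue is a mixture, and in it fewer sensory neurons and less RNA per neuron cannot be told apart.

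The first question was whether the machinery of receptor transport and cyclic AMP production follows the time of day. None of the 10 genes passed an adjusted p of 0.05 for a 24 h cosine in limma, where 0.0251% of all genes passed. At an unadjusted p under 0.05 there were likewise 0 of the 10, against 3.54% of all genes. The fitted amplitude, which is how far the peak rises over the mean, had a median of 0.04 log2 over the 10 genes, against 0.06 over all genes. It ranged from 0.02 for Gnb1 to 0.10 for Pde1c. The adjusted p of each of the 10 genes was 0.996 in limma.

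Pde1c encodes a calmodulin-stimulated phosphodiesterase of the sensory cilia, and its amplitude was the largest of the 10, at 0.10 ± 0.05 (SE, 12 pools). The fitted peak lay at CT 22.2 and stood 1.15-fold above the trough (limma, unadjusted p = 0.142). Its highest pool was CT48 at 11.62 and its lowest CT36 at 11.17. CT12, which shares its phase with CT36, read 11.42 and was the lowest pool of the first cycle, so phase 12 h held the lowest pool of each cycle. Without CT36 the amplitude of Pde1c was 0.06 (limma, unadjusted p = 0.368), below that of Rtp1 at 0.09 in the same fit. Rtp1 had the next largest amplitude, 0.09 ± 0.05, with a fitted peak at CT 5.5 in the subjective day 1.13-fold over the trough (limma, unadjusted p = 0.245). Its phase means were lowest at 16 h, where CT40 read 11.20 and CT16 read 11.41. CT40 was the lowest of all 12 pools, and CT16 the lowest of the first cycle. Without CT40 the amplitude of Rtp1 was 0.06 (limma, unadjusted p = 0.565).

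The remaining 8 genes had amplitudes between 0.02 and 0.05, with SE of 0.04 to 0.06. Their fitted peaks were scattered. Those of Rtp2 (CT 5.2), Gng13 (CT 7.7), Ric8b (CT 8.6), Adcy3 (CT 9.3) and Pde4a (CT 2.2) fell in the subjective day, and those of Gnb1 (CT 12.1), Gnal (CT 12.7) and Reep1 (CT 17.8) in the subjective night. With amplitudes no larger than about their SE these times are imprecise. Without single pools the amplitude of Gng13 ranged from 0.0036, without CT56, to 0.0972, without CT28. For 9 of the 10 genes the SD between the pools of one phase, which lie 24 h apart, exceeded the amplitude. The exception was Pde1c, at 0.09 against 0.10.

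**Figure D1:**
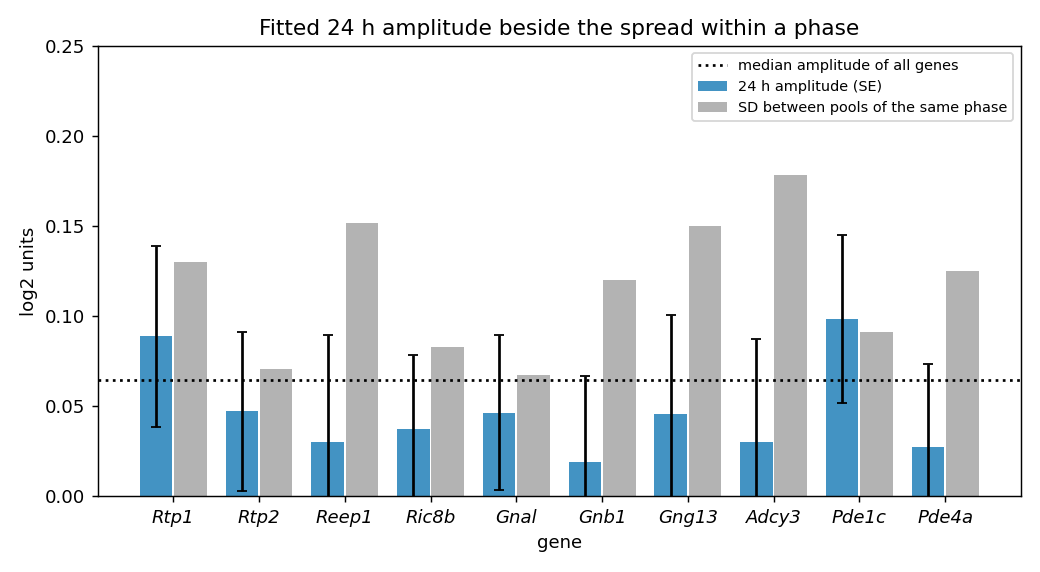
The y axis gives log2 units for each of the 10 genes on the x axis. Blue bars show the fitted 24 h amplitude with its SE over 12 pools, grey bars the SD between pools of the same phase, and the dotted line the median amplitude of all genes (0.06). Pde1c (0.10) and Rtp1 (0.09) alone exceed that line, and the grey bar is the taller one in every gene except Pde1c.

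The 6 phase means, each over 2 pools, show the course of the day without a fitted curve. They spanned 0.08 log2 for Pde4a, 0.09 for Adcy3, 0.11 for Ric8b, 0.14 for Gnb1, 0.19 for Gng13, Rtp2 and Gnal, 0.22 for Rtp1, 0.24 for Reep1 and 0.30 for Pde1c. Phase as a factor of 6 levels, which allows any shape over the day, also called 0 of the 10 genes, with 0 at an unadjusted p under 0.05. The same fit called 17 of all genes and had 3361 of all genes at an unadjusted p under 0.05.

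**Figure D2:**
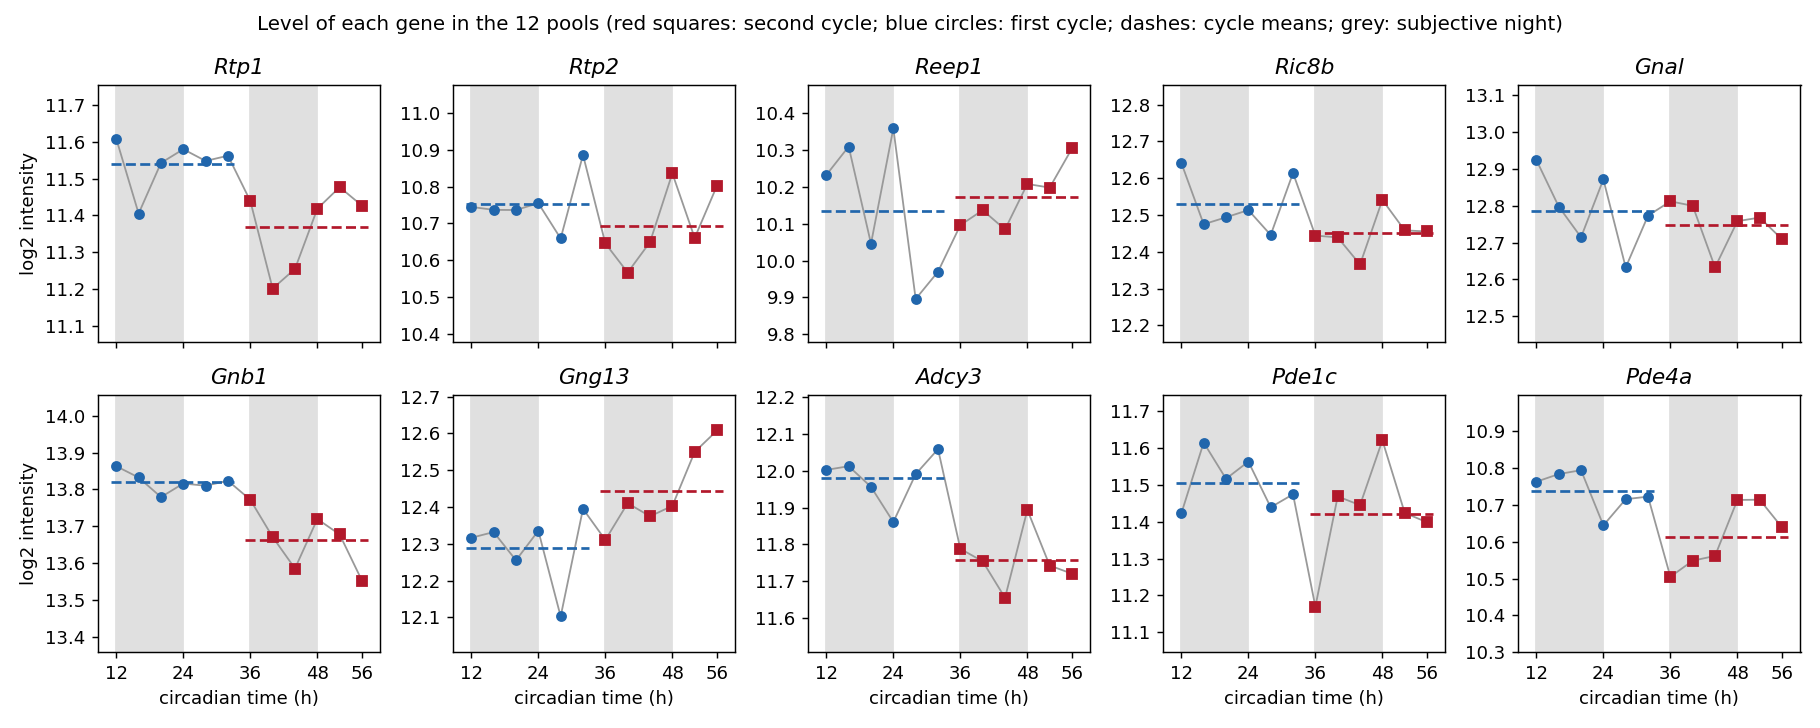
Each panel gives the log2 intensity of 1 gene (y axis, all panels spanning the same range) against circadian time in hours (x axis), with 1 point per pool. Red squares are the second cycle and blue circles the first cycle, dashed lines are the cycle means, and grey bands are the subjective night. Gnb1 and Adcy3 lie lower in the second cycle, Gng13 lies higher in it, and the highest pool of Pde1c, CT48 at 11.62, is level with CT16.

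The second question was whether levels differed between the second and the first cycle in darkness. The comparison was made within phase, between pools 24 h apart. The labels do not say whether arrays were run in batches, so time in darkness and any batch aligned with it cannot be told apart. None of the 10 genes passed an adjusted p of 0.05 in limma, as was true of all 19937 genes (0% called). At an unadjusted p under 0.05, 3 of the 10 read lower in the second cycle, where 8.94% of all genes did. Another 1 of the 10 read higher, where 4.22% of all genes did. By sign alone 8 of the 10 read lower and 2 higher. The median difference over the 10 genes was -0.08 log2, against -0.03 over all genes, of which 61.7% read lower.

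Receptor transport comes first in the pathway. Rtp1, which brings odorant receptors to the cell surface, had a lowest, median and highest level of 11.20, 11.42 and 11.48 in the second cycle, against 11.41, 11.56 and 11.61 in the first. The low pools were CT40 and CT44, and the cycles overlapped only because CT16 read low in the first. Rtp1 read lower in 6 of 6 phases by 0.07 to 0.29 log2, a mean difference of -0.17 ± 0.05 (SE), or a fold of 0.888 (limma, unadjusted p = 0.00613, adjusted p = 0.304). An exact sign-flip test over the 6 pairs, two-sided, gave p = 0.03125, the smallest it can give.

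Rtp2, its close relative with the same role, had a lowest, median and highest level of 10.57, 10.65 and 10.84 in the second cycle, against 10.66, 10.74 and 10.89 in the first. The cycles overlapped over most of their range. Its difference of -0.06 ± 0.05 had an interval from -0.18 to 0.06 (limma, adjusted p = 0.660). The log2 ratio of Rtp1 over Rtp2 within an array averaged 0.68 ± 0.10 in the second cycle and 0.79 ± 0.09 in the first (SD, 6 pools each), and it was lower in 6 of 6 phases. This pair of ratios is given as a description, since ratios between genes of the list were not tested.

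Reep1 encodes a membrane protein of the endoplasmic reticulum that was found, like the RTP proteins, to raise receptor display at the cell surface in cultured cells. Its lowest, median and highest level was 10.08, 10.17 and 10.30 in the second cycle, against 9.90, 10.14 and 10.36 in the first. The first cycle held both the highest pool, CT24, and the lowest, CT28. The difference of 0.04 ± 0.08 had an interval from -0.14 to 0.21 (limma, adjusted p = 0.877), and 3 phases read higher and 3 lower. Reep1 read higher by 0.30 at CT52 than at CT28 and by 0.34 at CT56 than at CT32. Without the pair CT32 and CT56 its difference was -0.02, and without the pair CT28 and CT52 it was also -0.02.

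The G protein subunits differed in sign. Gnal encodes the alpha subunit Golf, and its lowest, median and highest level was 12.63, 12.76 and 12.81 in the second cycle, against 12.63, 12.79 and 12.92 in the first. The cycles covered nearly the same range. Its difference was -0.04 ± 0.05, with an interval from -0.16 to 0.08 (limma, adjusted p = 0.795).

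Gnb1, the beta subunit paired with Golf, had a lowest, median and highest level of 13.55, 13.67 and 13.77 in the second cycle, against 13.78, 13.82 and 13.86 in the first. Every pool of the second cycle lay below every pool of the first, which held for 1 of the 10 genes and for 1.01% of all genes. The 6 pools of the first cycle were close together, with an SD of 0.03, against 0.08 in the second. Its mean difference was -0.16 ± 0.05 (limma, unadjusted p = 0.00947, adjusted p = 0.304), and it was lower in 6 of 6 phases (exact sign-flip test, two-sided, p = 0.03125, the smallest it can give). Rtp1 and Gnb1 were the 2 genes of the list lower in all 6 phases, where 6.1% of all genes were.

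Gng13, the gamma subunit of the same G protein, which tuft and taste cells also use, read higher instead. Its lowest, median and highest level was 12.31, 12.41 and 12.61 in the second cycle, against 12.10, 12.32 and 12.40 in the first. The high pools were CT56 at 12.61 and CT52 at 12.55, and the low pool was CT28 at 12.10. It read higher by 0.15 ± 0.06 (limma, unadjusted p = 0.0354, adjusted p = 0.347), in 5 of 6 phases (exact sign-flip test, two-sided, p = 0.0625). The pair CT52 and CT28 gave the largest difference, 0.45, and without that pair the mean was 0.09 (limma, unadjusted p = 0.153). Without CT28, CT32, CT52 and CT56, a fit added after seeing the data, it was 0.06 (limma, unadjusted p = 0.322). Of the markers of microvillar and tuft cells, 5 of 6 read lower in the second cycle, where 61.7% of all genes did. Their median difference was -0.02, with 0 at an unadjusted p under 0.05. Their summed level was 10.94 to 11.23 in the second cycle, against 11.02 to 11.24 in the first. The part of these cells in the level of Gng13 was not tested.

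Within an array the log2 ratio of Gng13 over Gnb1 averaged -1.22 ± 0.18 in the second cycle and -1.53 ± 0.10 in the first (SD, 6 pools each), and it was higher in 6 of 6 phases. Over Gnal, the ratio of Gng13 averaged -0.30 ± 0.14 in the second cycle and -0.50 ± 0.08 in the first, also higher in 6 of 6 phases. Other ratios were less even. Gnal over Gnb1 and Pde1c over Pde4a were each higher in 4 of 6 phases. Adcy3 over Gnal and Ric8b over Gnal were each lower in 5 of 6, and Reep1 over Rtp1 was higher in 6 of 6. All are given as a description. Probe intensities of different genes are not on one scale, so a ratio can be set only against the same ratio in other pools.

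Ric8b, an exchange factor and chaperone that keeps Golf folded and active, had a lowest, median and highest level of 12.37, 12.45 and 12.54 in the second cycle, against 12.45, 12.50 and 12.64 in the first. Its difference was -0.08 ± 0.05, with an interval from -0.20 to 0.04 (limma, adjusted p = 0.548). The cycles overlapped, and 4 of 6 phases read lower.

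Adcy3, the cyclase that makes cyclic AMP in the cilia, had the largest difference of the 10. Its lowest, median and highest level was 11.65, 11.75 and 11.89 in the second cycle, against 11.86, 12.00 and 12.06 in the first. CT48, which read 11.89, was the only pool of the second cycle to reach the first, in which CT24, its partner in phase, was the lowest at 11.86. The difference was -0.22 ± 0.06, a fold of 0.858, with an interval from -0.35 to -0.09 (limma, unadjusted p = 0.00308, adjusted p = 0.304). It read lower in 5 of 6 phases (exact sign-flip test, two-sided, p = 0.0625).

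The phosphodiesterases act in different places in the neuron, PDE1C in the cilia and PDE4A in the dendrite, cell body and axon. Pde4a had a lowest, median and highest level of 10.50, 10.60 and 10.71 in the second cycle, against 10.64, 10.74 and 10.79 in the first. The subjective night pools CT36, CT40 and CT44 were its low ones, at 10.50, 10.55 and 10.56, each below the pool of the same phase a cycle earlier. The mean difference was -0.12 ± 0.06 (limma, unadjusted p = 0.0640, adjusted p = 0.405), lower in 5 of 6 phases. Pde1c had a lowest, median and highest level of 11.17, 11.43 and 11.62 in the second cycle, against 11.42, 11.50 and 11.62 in the first. Its difference was -0.08 ± 0.06, with an interval from -0.21 to 0.04 (limma, adjusted p = 0.541), and 5 of 6 phases read lower.

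**Figure D3:**
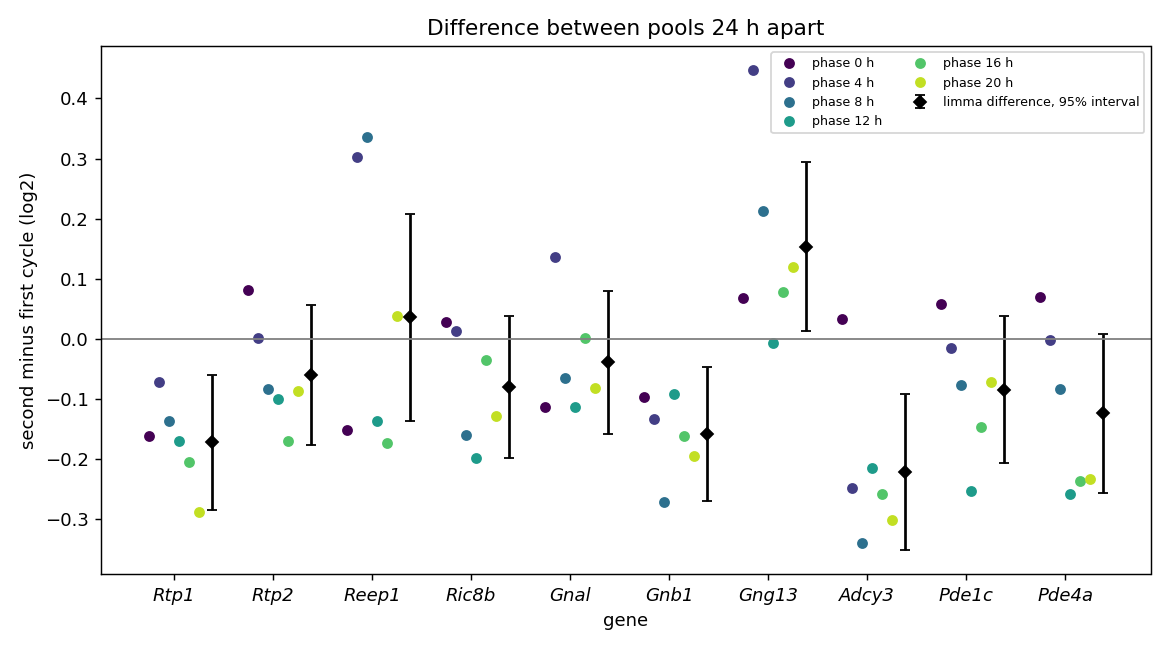
The y axis gives second minus first cycle in log2 units for each gene on the x axis. Coloured points are the 6 pairs of pools 24 h apart, by phase, and black diamonds the limma difference with its 95% interval. All points of Rtp1 and Gnb1 lie below 0, those of Adcy3 do except at phase 0 h, and those of Gng13 lie above 0 except at phase 12 h.

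By phase, the mean of the 10 genes, each centred on its own mean, differed most in the subjective night. It was lower by 0.15 log2 in the pair of phase 12 h, by 0.13 at 16 h and by 0.12 at 20 h. In the subjective day the differences were -0.02 at 0 h, 0.04 at 4 h and -0.07 at 8 h. Over all 6 pairs the mean was -0.07 ± 0.08 (SD). Gng13 and Reep1 raised the day values, reading higher by 0.45 and 0.30 at 4 h and by 0.21 and 0.34 at 8 h. Every other gene read lower at 8 h, where Gnb1 (-0.27) and Adcy3 (-0.34) had their largest drops. The pattern by phase is therefore one of the mean and not of each gene. The pair of phase 8 h was CT56 and CT32, the arrays with the lowest mean correlation with the others. Without that pair Gnb1 differed by -0.14 between the cycles (limma, unadjusted p = 0.0232) and Adcy3 by -0.20 (limma, unadjusted p = 0.0101). Each phase holds 1 pair of pools, so the contrast between night and day phases was not tested.

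Sensory neuron markers also read lower. All 8 mature neuron markers read lower in the second cycle, 6 of them at an unadjusted p under 0.05, and 0 passed in limma (lowest adjusted p = 0.304). Their summed level was 15.18 to 15.41 in the second cycle, against 15.38 to 15.50 in the first. The mean difference of the 8 was -0.16. All 8 immature neuron markers also read lower, all 8 at an unadjusted p under 0.05, with a mean difference of -0.20, and 0 passed in limma (lowest adjusted p = 0.304). They had a summed level of 13.11 to 13.31 in the second cycle, against 13.31 to 13.45 in the first. No marker of either list was near the bottom of the scale, the dimmest being Gng8 with a mean of 9.02. With the mature marker mean as a covariate, 0 of the 10 genes had an unadjusted p under 0.05 and the median difference was 0.01. Over all 19937 genes that fit left 249 at an unadjusted p under 0.05, against 2625 without the covariate, and the median was also 0.01. In that fit Adcy3 differed by 0.06 ± 0.12, Gnb1 by -0.03 ± 0.12 and Gng13 by 0.05 ± 0.17. Rtp1 differed by -0.17 ± 0.13, with an interval from -0.47 to 0.13 (limma, unadjusted p = 0.224). The SE more than doubled for each of the 10 genes, and Kirrel2, 1 of the 8 markers, spanned 9.90 to 12.10 over the pools. Without Kirrel2 in the covariate, a fit added after seeing the data, Gng13 differed by 0.19 ± 0.17, Adcy3 by 0.03 ± 0.13 and Rtp1 by -0.13 ± 0.13 (limma, unadjusted p = 0.355 for Rtp1).

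**Figure D4:**
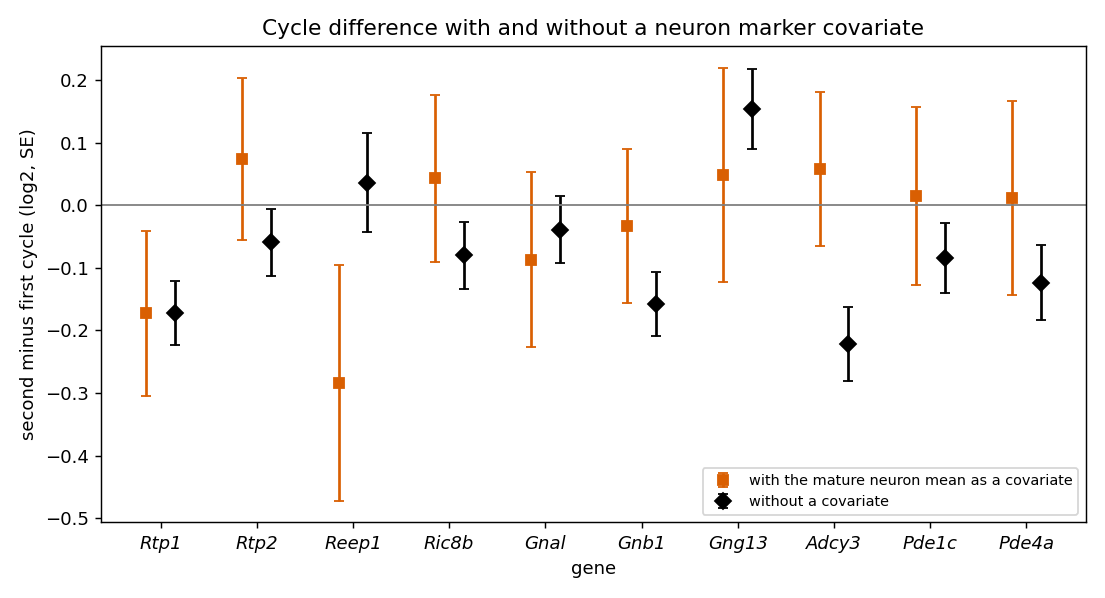
The y axis gives second minus first cycle in log2 units with its SE, for each gene on the x axis, from limma over 12 pools. Orange squares are fitted with the mean of 8 mature neuron markers as a covariate and black diamonds without it. Adcy3 stands at 0.06 with the covariate and -0.22 without it, while Rtp1 stands at -0.17 in both, with an SE of 0.13 with the covariate and 0.05 without it.

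Markers of other cells that the tissue could hold differed less evenly, where 61.7% of all genes read lower. Of the 5 sustentacular markers, which belong to the supporting cells, 4 read lower, with a summed level of 15.23 to 15.39 in the second cycle, against 15.31 to 15.41 in the first. All 4 horizontal basal cell markers read lower, with a median difference of -0.04, and 3 of 4 globose basal cell markers did. Brain markers read higher in 3 of 4 cases, with a median of 0.10, and vomeronasal neuron markers in 2 of 2. The summed level of the brain markers was 9.45 to 10.02 in the second cycle, against 9.52 to 9.63 in the first. Gland markers ranged from 13.67 to 14.94 in summed level in the second cycle, against 13.73 to 14.40 in the first, with 3 of 5 lower. Respiratory markers read higher in 3 of 5 cases, muscle and bone markers in 3 of 4, and blood and immune markers in 1 of 3. At an unadjusted p under 0.05, 2 gland markers and 1 respiratory marker read lower and 1 brain marker higher. Of the globose basal cell markers 1 read lower and 1 higher at that level. The sustentacular, horizontal basal, vomeronasal, muscle and bone, and blood and immune lists had 0. The part of any of these cells in the differences above was not tested.

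The next steps of the pathway were read from a list of 14 measured genes, which shares 6 genes with the mature neuron markers. Of these, 13 read lower in the second cycle, 6 of them at an unadjusted p under 0.05, and 0 passed in limma. The median difference was -0.10. Calm3, a gene for calmodulin, which senses the calcium that enters, differed by -0.23 ± 0.06 and Cngb1, a subunit of the cyclic nucleotide-gated channel, by -0.22 ± 0.06. Omp, the olfactory marker protein, differed by -0.20 ± 0.05 and Ano2, the calcium-gated chloride channel, by -0.19 ± 0.05 (limma, adjusted p = 0.304 for each of the 4). Adcy3, at -0.22, was of the same size. Ric8a, the relative of Ric8b that serves other G proteins, differed by -0.10 ± 0.07, and Grk3, a kinase that desensitises receptors, by -0.04 ± 0.06. In the 24 h fit 1 of the 14 had an unadjusted p under 0.05. This was Slc12a2, which loads the neuron with chloride, whose amplitude was 0.11 ± 0.04 around a peak at CT 20.5 (limma, adjusted p = 0.996).

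Of 24 other G protein subunits, 11 read lower and 13 higher in the second cycle, with a median of 0.01, and 0 passed in limma. Gng5, a widely expressed gamma subunit, read higher by 0.53 ± 0.12 (limma, adjusted p = 0.304), in the same direction as Gng13. Its SD over the 6 pools was 0.39 in the second cycle and 0.16 in the first. The pairs of Gng5 ran from 0.08 at phase 12 h to 1.16 at 8 h. For Gng5 and Gng13 alike the highest pool was CT56, the array that stood apart. Gnao1, the alpha subunit Go, read lower by 0.18 ± 0.05 and Gnb5, a beta subunit that binds RGS proteins, by 0.15 ± 0.05. Gng8, the gamma subunit of immature sensory neurons, read lower by 0.16 ± 0.06 (limma, adjusted p = 0.304, 0.313 and 0.325). In the 24 h fit 1 of the 24 had an unadjusted p under 0.05, Gnaz, whose amplitude was 0.11 ± 0.04 around a peak at CT 7.5 (limma, adjusted p = 0.996).

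Of 15 other cyclases and phosphodiesterases, 11 read lower and 4 higher, with a median of -0.05, where 61.7% of all genes read lower. Pde4b, which degrades cyclic AMP like its relative Pde4a, read higher by 0.12 ± 0.05 in 6 of 6 phases (limma, adjusted p = 0.337), while Pde4a read lower by 0.12. Of the 7 RTP and REEP relatives, 5 read lower and 2 higher, with a median of -0.0035 and 0 at an unadjusted p under 0.05. Of 9 ciliary transport genes, 7 read lower, with a median of -0.08. Among them Bbs1, part of the complex that carries membrane proteins into cilia, read lower by 0.14 ± 0.06 (limma, adjusted p = 0.377). None of the genes in these 3 lists had an unadjusted p under 0.05 in the 24 h fit.

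How the 10 genes varied together was described by Pearson's r over the 12 pools. The points share their arrays, and the shift between cycles enters every value. Of 45 pairs, 36 had an r above 0, with a median of 0.29. Gnb1 and Adcy3 stood highest at 0.87, followed by Adcy3 with Pde4a at 0.74 and Adcy3 with Ric8b at 0.72. Gng13 gave the lowest values, -0.66 with Gnb1, its partner in the dimer, and -0.56 with Adcy3. Gng13 went with Reep1 at 0.53. Rtp1 and Rtp2 had an r of 0.53, and Pde1c and Pde4a one of 0.59.

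**Figure D5:**
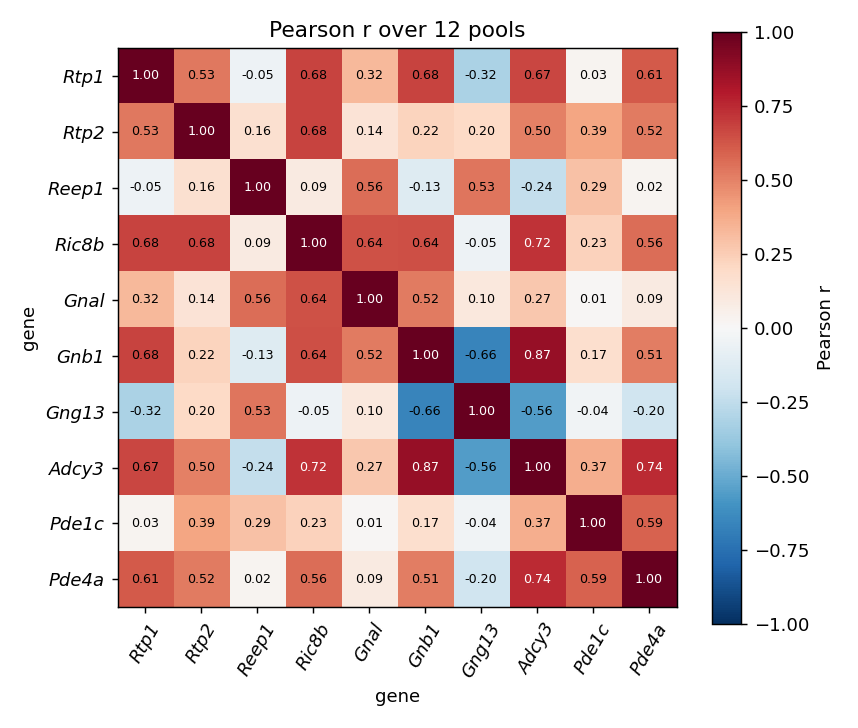
Both axes list the 10 genes, and each cell gives Pearson's r between 2 genes over 12 pools, in red above 0 and blue below 0. Gnb1, Adcy3, Ric8b, Rtp1 and Pde4a have values from 0.51 to 0.87 with one another. Gng13 has values below 0 with these genes and with Pde1c, the lowest being those with Gnb1 and Adcy3.

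Outside the list, the genes nearest to the mean of the 10 over 12 pools were Med12l (r = 0.94), Spock1 (0.94), Nob1 (0.91), Olfr633 (0.90) and Ebf3 (0.90). The nearest gene to Adcy3 was Cngb1 at 0.98 and the nearest to Gnb1 was Faim2 at 0.97. For Pde1c it was Pitpnc1 (0.96), for Ric8b Aldh5a1 (0.93), for Rtp2 Agbl5 (0.93) and for Pde4a Gng8 (0.91). For Rtp1 it was Shroom2 (0.91), for Gnal 9330159F19Rik (0.91), for Reep1 Olfr558 (0.91) and for Gng13 the small nucleolar RNA gene Snord53 (0.92). Each is the highest among all genes outside the list, taken as a description.

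Promoters were read because Gng13 and Gnb1, partners in one dimer, had cycle differences of opposite sign. Neither difference passed (limma, adjusted p = 0.347 for Gng13 and 0.304 for Gnb1). RefSeq windows of the build GRCm38.p6 were matched by symbol to 8 of the 10 genes, with 14 windows in all, each the 250 bases before an annotated start. Rtp1 and Gnal had no window. Motifs were searched on both strands. The clock E-box CACGTG, held by 6.02% of all 32851 windows, the cyclic AMP response element TGACGTCA (1.55%) and the long form of the EBF site of olfactory promoters, TCCCNNGGG followed by A (0.779%), were each found in 0 of the 14. The shorter TCCCNNGGG, which the long form contains, was held by 5.6% of all windows and by 3 of the 14, of Gng13, Reep1 and Pde4a. The shorter TGACG, which the response element contains, was held by 17.8% of all windows and by 4 of the 14, of Gnb1, Pde4a, Ric8b and Rtp2. A match is a run of letters and not a site shown to be bound. Nor did the motifs part by the sign of the cycle difference. A window of Pde4a, which read lower, held TCCCNNGGG at 233 and 149 bases before its start and TGACG at 46. That window is not printed. Capitals mark TCCCNNGGG in the windows of Gng13 (chr17:25716922-25717171, plus strand, read on the minus strand) and Reep1 (chr6:71707431-71707680, plus strand), and TGACG, on either strand, in that of Gnb1 (chr4:155491111-155491360, plus strand).
Gng13: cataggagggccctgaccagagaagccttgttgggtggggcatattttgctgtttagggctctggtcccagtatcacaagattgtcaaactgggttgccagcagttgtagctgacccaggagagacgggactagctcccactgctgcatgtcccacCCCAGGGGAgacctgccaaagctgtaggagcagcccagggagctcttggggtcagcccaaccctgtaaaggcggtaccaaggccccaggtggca
Reep1: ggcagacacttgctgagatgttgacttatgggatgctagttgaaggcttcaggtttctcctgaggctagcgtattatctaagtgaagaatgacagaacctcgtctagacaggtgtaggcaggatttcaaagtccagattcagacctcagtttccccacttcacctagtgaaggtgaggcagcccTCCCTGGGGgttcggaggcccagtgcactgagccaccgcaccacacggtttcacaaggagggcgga
Gnb1: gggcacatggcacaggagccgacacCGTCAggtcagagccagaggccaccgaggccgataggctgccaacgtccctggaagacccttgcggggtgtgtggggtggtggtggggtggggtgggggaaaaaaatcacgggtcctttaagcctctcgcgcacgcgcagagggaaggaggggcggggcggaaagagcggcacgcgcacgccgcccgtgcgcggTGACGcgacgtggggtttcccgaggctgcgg
The match of Gng13 ended 86 bases before the annotated start that follows its window, and that of Reep1 58 bases before its own. Those of Gnb1 ended 221 and 27 bases before the start that follows its window. For Reep1 and Gnb1 this is not the first base of the gene. The RefSeq gene start of Reep1, 71707429, lies before its window, and that of Gnb1, 155491300, lies inside its window.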

How the data were processed

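The deposited table holds 1 log2 value per probe and pool, 34760 probes in all. The log2 scale of the deposited values was taken from their span of 3.48 to 14.47: a 16-bit scanner cannot exceed 11.09 in natural log, and its log2 limit is 16. The submitters' processing notes name affy. How background was corrected and arrays were normalized is not given in the sources used here. Per the labels' protocols, total RNA was amplified with a random-primed kit and labelled with biotin.

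Of the probes, 21640 had 1 gene symbol in the platform annotation. Symbols were checked by Entrez ID against RefSeq GRCm38.p6 (21553 matched, 0 changed). Each gene took its probe with the highest mean, which left 19937 genes.

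Fits used limma 3.58.1 in R 4.3.3 over all genes, on log2 values with no floor or filter, and Benjamini-Hochberg adjustment over all genes with a threshold of 0.05. The 24 h rhythm was a cosine and sine over 12 pools (9 residual degrees of freedom, moderated F test). The cycle contrast held phase as a factor, so pools were paired within phase (5 residual degrees of freedom). The SE of an amplitude comes from the fit. The sign-flip test was exact over 6 pairs. The fits were tested on simulated data. Marker levels were summed on the linear scale and put back to log2.

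The members and gene lists were chosen with earlier results of these data known. Named genes were all members, up to 4 genes per other list and comparison by the smallest p under 0.05, Ric8a, Grk3 and Omp, and the genes with the highest correlation. Kirrel2 and pools singled out were named after their values were seen. Results were recomputed with array weights, a trended robust prior, quantile normalization, median centring, the averaged probes of a gene, only the genes above the 25th percentile, a neuron covariate, periods of 22 and 26 h, cycle as a block, other forms of the contrast, and without single pools. Figures were drawn with matplotlib 3.10.9.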

Additional observations from a re-analysis of the deposited data

Results flagged for a closer look

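The 6 pools of each cycle were checked, gene by gene, for 1 pool that stood off from its 5 neighbours, which made 20 groups for the 10 genes. In 1 group the gap to the nearest pool took up more of the group's range than Dixon's 95% limit allows, where chance gives about 1. This was Rtp1 at CT16, which read 11.41 in the first cycle with the nearest pool at 11.54, a gap of 0.677 of the range. Without the pair CT16 and CT40 Rtp1 differed by -0.17 between the second and the first cycle.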

How the results depend on the processing

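In every alternative run for the 24 h rhythm, 0 of the 10 genes passed and 0 had an unadjusted p under 0.05, with a lowest adjusted p of 0.435 in limma. The closest were Rtp1 with the mature neuron covariate (amplitude 0.14, limma, unadjusted p = 0.050001) and Pde1c with that covariate less Kirrel2 (0.12, limma, unadjusted p = 0.0539). The median amplitude was 0.071 with the covariate, against 0.070 over all genes. With the covariate less Kirrel2 it was 0.039, against 0.067. In every alternative for the cycle comparison 0 passed, with a lowest adjusted p of 0.0814, for Rtp1 with array weights. The number at an unadjusted p under 0.05 was 4, and it was 3 to 5 without single pools. It was 2 without CT28, CT32, CT52 and CT56 together (added after seeing the data), namely Rtp1 and Adcy3. Gnb1 stood there at -0.14 (limma, unadjusted p = 0.0558). The number was 0 with the mature neuron covariate, with or without Kirrel2. The median difference was -0.107 to -0.0541 without single pools, 0.0129 with the covariate and 0.0440 with the covariate less Kirrel2. Over all genes it was 0.0111 with the covariate and 0.0082 with the covariate less Kirrel2. With the covariate the sign turned for Adcy3 (0.0580), Ric8b (0.0430), Pde1c (0.0139), Pde4a (0.0119), Rtp2 (0.0740) and Reep1 (-0.284). With the covariate less Kirrel2 it turned for Adcy3 (0.0265), Ric8b (0.0922), Pde1c (0.0615), Pde4a (0.0818), Rtp2 (0.0854) and Reep1 (-0.129). The cause was not tested. Reep1 was also -0.0238 without CT32 and CT56 and -0.105 without CT28, CT32, CT52 and CT56, and -0.0238 to 0.0778 without single pools. Without phase in the fit, that is with no replicate block, the median difference was -0.0821 and 5 of the 10 genes had an unadjusted p under 0.05. Of 649 alternative values, 626 kept direction and side of the threshold, or moved by less than the spread. Many of these could not change, so the count says little about stability. An amplitude has no sign, and the sign-flip values were counted as kept. Leaving out either pool of a phase gives the same cycle difference. Over all genes at an unadjusted p under 0.05 in the cycle comparison, 32.1% were higher, against 51.4% with median centring and 46.1% with quantile normalization, while the 10 genes gave 1 higher and 3 lower in all of these. Over all genes, the 24 h rhythm had 706 at an unadjusted p under 0.05, against 1424 with array weights, 2143 without CT32 and CT56, 1221 without CT52, 1141 without CT56 and 3361 with phase as a factor. The cycle comparison had 2625, against 4231 with array weights (17 called), 3944 without CT12 or CT36 (18 called), 1585 without CT20 or CT44, 1416 without CT32 or CT56, 795 without the 4 pools above and 249 and 244 with the covariates. The number of arrays limits the precision.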
